A study of Homo sapiens with 6 samples.

Results

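The transcription factors that specify or maintain the foregut and pancreatic endoderm include 8 genes that were followed in YAPC cells, a human pancreatic ductal adenocarcinoma (PDA) line used as a model of the classical subtype. These are GATA6, GATA4, HNF4A, HNF4G, FOXA1, FOXA2, FOXA3 and PDX1. They were chosen by name, and all 8 were found among the 27024 entries of the deposited expression table, which leave 25440 genes on the primary chromosomes. The comparison was between YAPC-iGLI2 cells, in which doxycycline (Dox) induces C-terminally Flag-tagged human GLI2 from the retroviral vector pRetroX-Tight-Puro, and YAPC-iEV cells, which carry the empty vector. Both were kept in 1 μg/ml Dox for 6 days, so any effect of Dox itself is shared, and 3 RNA-seq libraries were made of each. Whether the lines are pools or single clones, and whether the 3 libraries came from separate cultures, is not given in the sources used here. The p-values below therefore measure the spread between these libraries, which may be technical.

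GATA6 and GATA4 are zinc finger factors that bind the GATA motif and open enhancers in early gut endoderm. The FOXA proteins are forkhead factors that bind nucleosomal DNA ahead of other regulators in foregut, liver and pancreas. HNF4A and HNF4G are nuclear receptors that drive hepatic, intestinal and gastric epithelial genes, and PDX1 is the homeodomain factor required for pancreas formation. In PDA, GATA6 and HNF4A are known as markers of the classical subtype.

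Values are read as FPKM, a unit that divides fragment counts by transcript length and library size, so levels can be set side by side between genes. Differences were tested with limma on log2(FPKM + 1) over 12492 genes, those whose mean over the 6 libraries reached 1 FPKM, and adjusted p-values cover all of them. Adding 1 understates the fold change of genes at a few FPKM, which includes 7 of the 8 factors, so the ratio of mean FPKM is given beside it. GLI2 was between 0.344 and 0.466 FPKM in the iEV libraries and 94.5, 207 and 195 FPKM in iGLI2 replicates 1, 2 and 3. Each library had the level its label gives, with iGLI2 replicate 1 the lowest of the induced libraries. Calls over all genes were 2742 with every library and 3753 without iGLI2 replicate 1. Total FPKM ran from 981344 to 1082687 in iEV and from 803149 to 889559 in iGLI2, and read depth is unknown. The small RNA gene MIR4461 alone held between 42.6% and 45.4% of the total in iEV and between 35.7% and 37.7% in iGLI2. Without small RNA genes the totals on the primary chromosomes overlapped. They ran from 535534 to 558862 in iEV and from 490578 to 536639 in iGLI2. Ductal identity was checked on 9 epithelial markers, of which 6 were at 1 FPKM or more in every library, KRT19 between 521 and 682 FPKM and EPCAM between 396 and 526 FPKM among them. Of these 6, all tested by limma, EPCAM was higher in iGLI2 (adjusted p = 0.00709), 2 were lower and 3 did not pass, and MUC1, an apical mucin, fell from 21.7 to 3.61 FPKM (adjusted p = 0.000132). Over all genes tested 10.1% were higher and 11.8% lower at an adjusted p under 0.05, and 6 markers are too few to set beside those shares. KRT8 and KRT18, which share a locus in the table, were listed at 0 in all 6 libraries, so a value of 0 is not read as absence in what follows. Markers of islet cells reached at most 0.0337 FPKM. Among leukocyte markers CD68 was between 2.79 and 3.27 FPKM in every library, while PTPRC and CD3E were at most 0.0609 FPKM. Endothelial markers reached at most 0.313 FPKM. The summed fibroblast markers were between 1.35 and 1.57 FPKM in iEV and between 2.30 and 3.01 FPKM in iGLI2, nearly all of it COL1A1, while COL1A2, DCN, LUM and PDGFRB were at most 0.0335 FPKM. The part of these values in the results below was not tested.

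Among the 8 factors, GATA6 fell and FOXA1 rose in iGLI2 cells. GATA4, FOXA2 and PDX1 were tested and did not pass, and HNF4A, HNF4G and FOXA3 were below the filter of 1 FPKM and were not tested. Calls among the 5 factors tested were thus 1 higher and 1 lower. Both called factors were under 1 FPKM in every library of 1 group and passed the filter through the other group. Of all genes tested, 22.0% were called at an adjusted p under 0.05, 10.1% higher and 11.8% lower. Both called factors also differed by at least 2-fold on the log2(FPKM + 1) scale, a size that 4.22% of all genes tested reached together with the adjusted p. The median difference of the 5 factors was -0.18 on the log2(FPKM + 1) scale, against -0.015 over all genes tested. Groups did not overlap for 2 of these 5 factors, and for 42.0% of all genes tested. When small RNA genes were left out and the libraries rescaled, 59.4% of calls over all genes were higher against 46.0% as deposited, and GATA6 and FOXA1 kept their calls and directions.

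**Figure D1:**
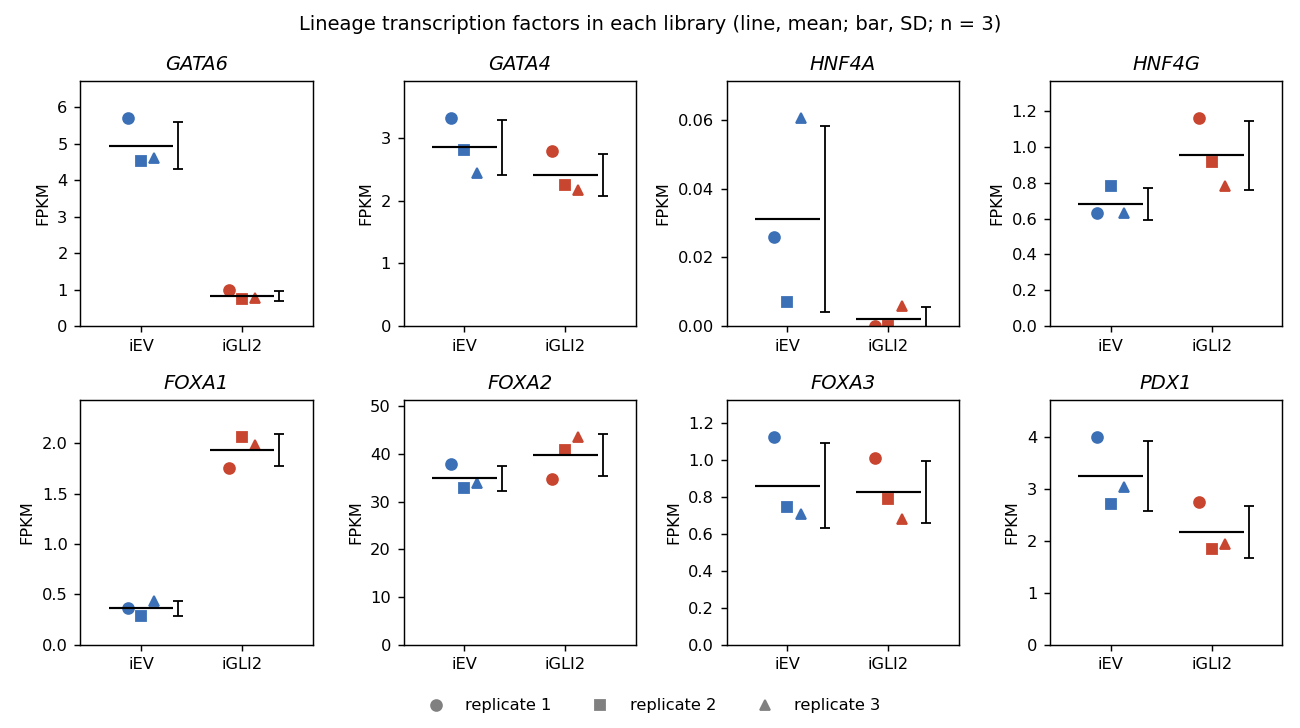
FPKM (y axis, linear, from 0, a different range in each panel) of the 8 lineage transcription factors in each YAPC-iEV and YAPC-iGLI2 library (x axis). Each symbol is a library, lines are means and bars are the SD of 3 libraries, cut at 0 for HNF4A. GATA6 sits between 4.52 and 5.69 FPKM in iEV and between 0.734 and 0.987 FPKM in iGLI2, FOXA1 moves from at most 0.429 to at least 1.76 FPKM, and the groups overlap in GATA4, HNF4G, FOXA2, FOXA3 and PDX1.

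Promoter sequences were available in RefSeq (GRCh38.p14) for 4 of the 8 factors, in 5 windows of 250 bases before a start site, and were placed on GRCh37, the build of the expression table, by exact match. Those of the GATA6 and FOXA1 genes are shown because these were the factors that changed, and the HNF4A window because it alone held a motif match, which is in capitals. For GATA6 the print stops before the first base of the gene in the expression table, at chr18:19749300-19749397, plus strand, within the stretch between the table's GATA6-AS1 and GATA6 loci. The FOXA1 window is chr14:38064455-38064704, minus strand, upstream of the FOXA1 locus. The HNF4A window is chr20:42984089-42984338, plus strand, upstream of the HNF4A locus.
GATA6: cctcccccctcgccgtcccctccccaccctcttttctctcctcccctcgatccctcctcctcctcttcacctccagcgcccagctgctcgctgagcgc
FOXA1: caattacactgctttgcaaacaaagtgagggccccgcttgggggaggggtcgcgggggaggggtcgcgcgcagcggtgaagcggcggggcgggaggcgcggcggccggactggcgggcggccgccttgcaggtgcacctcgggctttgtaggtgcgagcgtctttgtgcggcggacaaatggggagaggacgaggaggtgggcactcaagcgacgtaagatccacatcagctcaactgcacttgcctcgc
HNF4A: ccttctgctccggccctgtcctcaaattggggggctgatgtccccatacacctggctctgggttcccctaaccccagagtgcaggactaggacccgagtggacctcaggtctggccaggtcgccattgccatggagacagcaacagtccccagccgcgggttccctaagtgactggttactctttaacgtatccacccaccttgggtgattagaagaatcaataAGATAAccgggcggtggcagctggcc

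The full 250-base windows were GC-rich, at 64.4% for GATA6 and 67.2% for FOXA1. They were searched on both strands for the GLI motif GACCACCCA, exactly and with up to 1 mismatch, for the GATA motif AGATAA and for the FOXA motif TGTTTAC. Neither the GATA6 nor the FOXA1 window held any of them. Of 35116 promoter windows of the same length, 0.199% held the GLI motif exactly, 5.81% with up to 1 mismatch, 9.17% held AGATAA and 2.98% held TGTTTAC. The match in HNF4A began 26 bases before the start site. Matches are letters only and show no binding. Most of the 35116 windows lacked each motif too, so its lack in a window says little. Sites outside the 250 bases were not searched.

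GATA6, at chr18:19749398-19782491 on the plus strand, was at 5.69, 4.52 and 4.62 FPKM in iEV replicates 1, 2 and 3 and at 0.987, 0.734 and 0.770 FPKM in iGLI2 replicates 1, 2 and 3. Every iGLI2 library was thus far below every iEV library, and the highest iGLI2 value was in replicate 1, as was the highest iEV value. Mean FPKM was 4.95 ± 0.649 (SD, n = 3) in iEV and 0.830 ± 0.137 (SD, n = 3) in iGLI2, a 5.96-fold lower level. In bulk RNA, fewer cells with GATA6 and less GATA6 RNA per cell cannot be told apart. The limma difference was -1.70 with a standard error of 0.11, a 95% interval from -1.97 to -1.43 and an adjusted p of 0.000504. Counted from the most negative difference, GATA6 was at rank 110 of 12492 genes. GATA6 passed the filter of 1 FPKM through its iEV libraries, since no iGLI2 library reached that level. Without the filter it was called as well (limma, adjusted p = 0.000991). Over the alternatives in which it was tested the difference stayed between -2.44 and -1.61, with an adjusted p between 0.000194 and 0.00534 by limma. The region of GATA6 that the study amplified by qRT-PCR lies in the coding part of exon 2 of 7, and is shared by both coding transcripts. Its forward primer is ctcagttcctacgcttcgcat, at chr18:19751343-19751363 on the plus strand, and its reverse primer is gtcgaggtcagtgaacagca, at chr18:19751443-19751462 on the minus strand. They span 120 bases of the cDNA within that exon.

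GATA4, at chr8:11534428-11617511 on the plus strand, is the closest relative of GATA6 in foregut endoderm and shares many of its sites. It was at 3.31, 2.81 and 2.44 FPKM in iEV and at 2.79, 2.26 and 2.18 FPKM in iGLI2, in the order of replicates 1 to 3. The groups overlapped, with iGLI2 replicate 1 above iEV replicate 3. Means were 2.85 ± 0.441 and 2.41 ± 0.333 FPKM (SD, n = 3). The limma difference was -0.18 (SE 0.12, 95% interval -0.47 to 0.12, adjusted p = 0.354), so a change of the size measured for GATA6 lies outside the interval of GATA4.

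Within the GATA family, GATA6 was the most abundant of the 6 members in every iEV library. Its share of their summed FPKM was 39.6%, 43.3% and 44.1% in iEV and 9.86%, 6.32% and 7.27% in iGLI2, while the sum itself was between 10.5 and 14.4 FPKM in iEV and between 10.002 and 11.6 FPKM in iGLI2. GATA2, a haematopoietic and endothelial member, held between 15.2% and 22.0% of the sum in iEV and between 30.4% and 41.5% in iGLI2. GATA5, the third endodermal member, held between 11.05% and 12.7% in iEV and between 24.3% and 25.5% in iGLI2. The shares of GATA4 overlapped, from 23.02% to 26.9% in iEV and from 19.5% to 27.9% in iGLI2. In levels, GATA5 rose from 1.40 ± 0.289 to 2.65 ± 0.149 FPKM (limma difference 0.61, adjusted p = 0.0134), and GATA2 was at 2.18 FPKM in iEV and 3.99 FPKM in iGLI2 without passing (limma, adjusted p = 0.0855). The call of GATA5 was lost without iEV replicate 3 or iGLI2 replicate 2 (adjusted p = 0.0542 and 0.0526, limma). GATA2 passed without iEV replicate 1 (adjusted p = 0.0337) and with small RNA genes left out and the libraries rescaled (0.0433). Shares within a library depend on each other, since they sum to 100, and were not tested.

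**Figure D2:**
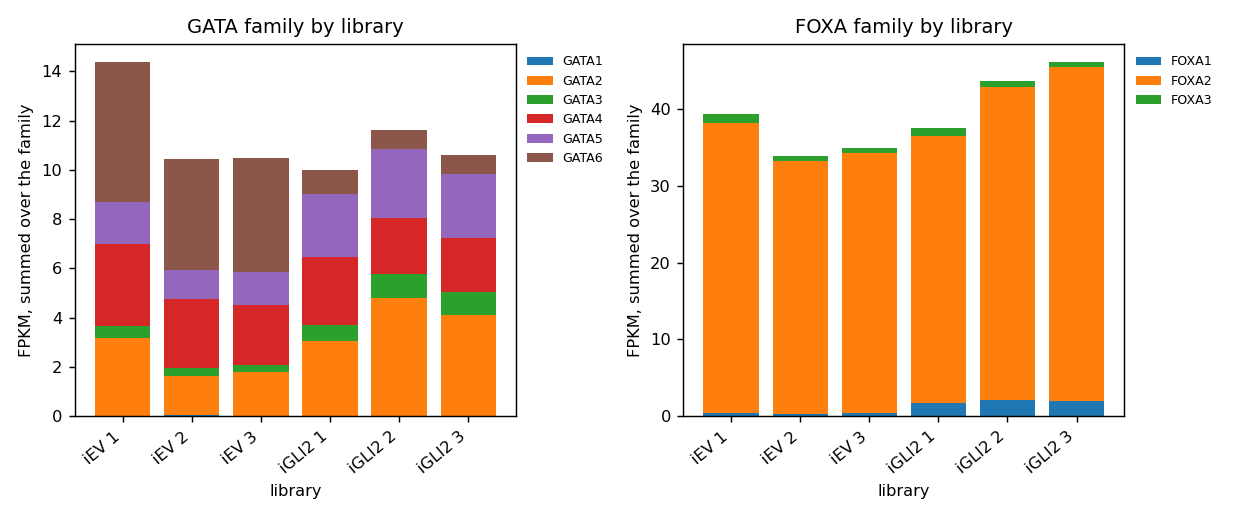
Stacked FPKM (y axis, linear, from 0) of the 6 GATA genes and the 3 FOXA genes in each library (x axis), without error bars since each bar is 1 library. The GATA6 segment takes between 39.6% and 44.1% of the GATA stack in iEV and between 6.32% and 9.86% in iGLI2, and FOXA2 takes at least 92.6% of the FOXA stack in every library.

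FOXA1, at chr14:38058757-38064325 on the minus strand, was at 0.366, 0.285 and 0.429 FPKM in iEV replicates 1, 2 and 3 and at 1.76, 2.06 and 1.98 FPKM in iGLI2 replicates 1, 2 and 3. The lowest iGLI2 library was above the highest iEV library. Means were 0.360 ± 0.0721 and 1.93 ± 0.158 FPKM (SD, n = 3), a 5.37-fold higher level in iGLI2. The limma difference was 1.11 with a standard error of 0.099, a 95% interval from 0.87 to 1.35 and an adjusted p of 0.00124, at rank 396 of 12492 from the most positive. FOXA1 passed the filter of 1 FPKM through its iGLI2 libraries, since no iEV library reached that level. Without the filter, over the 20033 genes with a value above 0 in some library, it was called as well, and over its alternatives the difference stayed between 0.96 and 2.15 with an adjusted p between 0.000185 and 0.00795 by limma.

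FOXA2, at chr20:22561642-22566101 on the minus strand, is the FOXA member of definitive endoderm and a direct regulator of PDX1 in the developing pancreas. It was at 37.8, 32.9 and 33.8 FPKM in iEV and at 34.8, 40.8 and 43.6 FPKM in iGLI2, replicates 1 to 3. The groups overlapped, since iGLI2 replicate 1 was below iEV replicate 1. Means were 34.9 ± 2.61 and 39.7 ± 4.48 FPKM (SD, n = 3), with a limma difference of 0.18 (SE 0.10, 95% interval -0.072 to 0.43, adjusted p = 0.272).

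FOXA3, at chr19:46367518-46377055 on the plus strand, is best known from liver and gut. Its values were 1.12, 0.746 and 0.709 FPKM in iEV and 1.01, 0.789 and 0.682 FPKM in iGLI2, replicates 1 to 3. In both groups replicate 1 was the highest, and the ranges overlapped almost entirely. Its mean over the 6 libraries was below 1 FPKM, so it was not tested, and the difference of the group means on the log2(FPKM + 1) scale was -0.023.

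FOXA2 held between 96.2% and 97.0% of the summed FPKM of the 3 FOXA genes in iEV and between 92.6% and 94.2% in iGLI2. The share of FOXA1 was between 0.840% and 1.23% in iEV and between 4.28% and 4.73% in iGLI2. FOXA1 therefore stayed a minor member of the family by level, at 1.93 FPKM beside 39.7 FPKM of FOXA2 in iGLI2 cells. It changed places with FOXA3 all the same, being below FOXA3 in each iEV library and above it in each iGLI2 library.

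HNF4A, at chr20:42984441-43061485 on the plus strand, was near 0 in every library. Its values were 0.0260, 0.00701 and 0.0605 FPKM in iEV replicates 1, 2 and 3, and in iGLI2 it was listed at 0 in replicates 1 and 2 and at 0.00596 FPKM in replicate 3. All iEV values were above all iGLI2 values, but the difference on the log2(FPKM + 1) scale was -0.041, and no fold is given at these levels. HNF4A did not reach the filter, and without a filter limma gave an adjusted p of 0.279. Its locus in the table is that of HNF4A-AS1 on the opposite strand, listed at 0 in all libraries, so these low values are given as listed and not as absence of HNF4A RNA.

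HNF4G, at chr8:76452203-76479061 on the plus strand, binds much the same sites as HNF4A in intestinal epithelium. Its listed values were above those of HNF4A in every library, with the limit on HNF4A values given above. HNF4G was at 0.629, 0.783 and 0.631 FPKM in iEV and at 1.16, 0.916 and 0.781 FPKM in iGLI2, replicates 1 to 3. The groups touched, with iGLI2 replicate 3 just below iEV replicate 2. Means were 0.681 ± 0.0886 and 0.952 ± 0.191 FPKM (SD, n = 3), the difference on the log2(FPKM + 1) scale was 0.21, and without a filter limma gave an adjusted p of 0.172. Of the summed FPKM of both HNF4 genes as listed, HNF4G held between 91.3% and 100%. Since low HNF4A values are not read as absence, this share does not show which of them had more RNA.

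PDX1, at chr13:28403896-28500451 on the plus strand, was at 4.01, 2.72 and 3.05 FPKM in iEV and at 2.74, 1.85 and 1.93 FPKM in iGLI2, replicates 1 to 3. The groups overlapped by a narrow margin, iGLI2 replicate 1 being just above iEV replicate 2, and replicate 1 was the highest in both groups. Means were 3.26 ± 0.671 and 2.17 ± 0.496 FPKM (SD, n = 3), a ratio of 0.667. The limma difference was -0.42 with a standard error of 0.16 and a 95% interval from -0.81 to -0.034, and it did not pass after adjustment in the limma fit (adjusted p = 0.116). Leaving out iGLI2 replicate 1 moved PDX1 past the threshold, with a difference of -0.55 and an adjusted p of 0.0448 by limma. A block on the replicate number did so too, as given below, though the sources do not give these numbers as pairs. The call of PDX1 is therefore not settled here. The locus of PDX1 in the table is shared with PDX1-AS1, a transcript of the opposite strand, and the library kit does not mark strand.

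**Figure D3:**
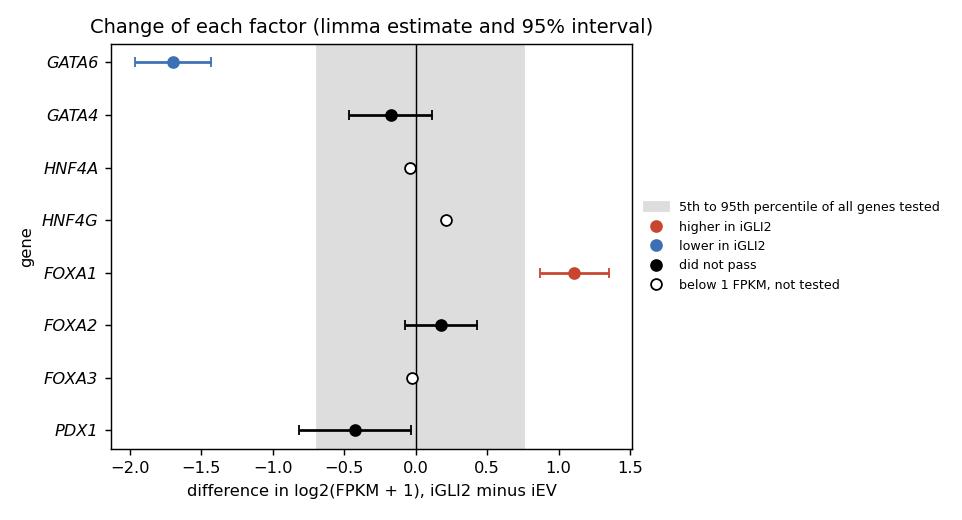
Difference in log2(FPKM + 1), iGLI2 minus iEV (x axis), for each of the 8 factors (y axis). Filled points are limma estimates with 95% intervals, open points are differences of group means of factors that were below the filter, and the grey band runs from the 5th to the 95th percentile of all genes tested, from -0.69 to 0.76. GATA6 and FOXA1 lie outside the band on opposite sides, and the other 6 factors lie inside it.

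By level, the factors of iEV cells stood in the order FOXA2, GATA6, PDX1, GATA4, FOXA3, HNF4G, FOXA1 and HNF4A. The ranges of PDX1 and GATA4 overlapped, as did those of FOXA3 and HNF4G, and all other neighbours in that order were apart. In iGLI2 cells the order was FOXA2, GATA4, PDX1, FOXA1, HNF4G, GATA6, FOXA3 and HNF4A. There the ranges of GATA4, PDX1 and FOXA1 ran into each other, and so did those of HNF4G, GATA6 and FOXA3, so that FOXA2 at the top and HNF4A at the bottom were the members clear of the rest. The place of HNF4A in both orders rests on its values as listed. GATA6 thus went from the second place to the factors with a mean below 1 FPKM in iGLI2. Of these, HNF4G and FOXA3 were above 1 FPKM in iGLI2 replicate 1.

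Log2 ratios between relatives within a library, each with 1 FPKM added, do not depend on a scaling of the whole library except through that added value. GATA6 over GATA4 was 0.63, 0.54 and 0.71 in iEV replicates 1, 2 and 3 and -0.93, -0.91 and -0.84 in iGLI2 replicates 1, 2 and 3, which is a reversal of their order in every library. FOXA1 over FOXA3 also changed sign, from -0.64, -0.44 and -0.26 to 0.46, 0.78 and 0.82. FOXA1 over FOXA2 was on average -4.72 in iEV and -3.79 in iGLI2. Each of these 3 ratios was without overlap between the groups, for which the two-sided exact permutation test gave p = 0.1, the smallest that 3 against 3 libraries allow, and 0.167 after adjustment over the 5 ratios computed. FOXA2 over FOXA3 (exact p = 0.4) and HNF4A over HNF4G (exact p = 0.2) overlapped.

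Of 9 listed transcripts next to these genes, 4 were in the table. GATA6-AS1, transcribed away from the GATA6 promoter on the opposite strand, was at 0.105, 0.165 and 0.137 FPKM in iEV and at 0.0223, 0.0213 and 0 FPKM in iGLI2, replicates 1 to 3. All of its iGLI2 values were below all of its iEV values, the direction of GATA6, at levels below the filter. Without the filter the limma difference of GATA6-AS1 was -0.16, with an adjusted p of 0.0104. LINC00261, the long non-coding RNA beside FOXA2 at chr20:22541192-22559280, was at 30.2, 21.0 and 22.0 FPKM in iEV and at 31.3, 21.4 and 22.6 FPKM in iGLI2, replicates 1 to 3. As with FOXA2 the groups overlapped, with a limma difference of 0.038 and an adjusted p of 0.909, and its sign turned when iEV replicate 2, iEV replicate 3 or iGLI2 replicate 1 was left out (-0.056, -0.025 and -0.13). PDX1-AS1 was between 0.0508 and 0.0910 FPKM in iEV and between 0.0135 and 0.0300 FPKM in iGLI2. It did not pass without the filter (limma, adjusted p = 0.0534). HNF4A-AS1 was listed at 0 throughout.

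In the wider set of pancreas and foregut factors, 39 were listed and 12 tested, of which 5 were higher, 2 were lower and 5 did not pass, with a median difference of 0.30. Over all genes tested 10.1% were higher and 11.8% lower, with a median of -0.015. PROX1, counted as higher, was between 0.632 and 0.815 FPKM in iEV and between 1.24 and 1.77 FPKM in iGLI2. It thus passed the filter of 1 FPKM through its iGLI2 libraries. SOX2, a factor of foregut and stratified epithelium, rose from 12.6 ± 1.75 to 62.7 ± 17.0 FPKM (SD, n = 3) with a limma difference of 2.20 (SE 0.22, adjusted p = 0.00196). Its locus in the table, chr3:180774468-181460013, is far longer than the SOX2 gene itself. HHEX, a homeobox factor of ventral foregut, was at 9.27, 9.61 and 8.83 FPKM in iEV and at 12.8, 25.0 and 25.2 FPKM in iGLI2, so that iGLI2 replicate 1 stood nearer to the iEV libraries than its fellows did. HHEX passed with a limma difference of 1.04 (adjusted p = 0.0357) but lost the call when any library other than iGLI2 replicate 1 was left out, with adjusted p-values between 0.0899 and 0.122, and also without the filter (0.0505) and with a block on the digit in the sample code (0.0586). MNX1, a homeobox factor of pancreatic bud and beta cells, was at 4.14, 3.21 and 3.46 FPKM in iEV and at 1.83, 2.17 and 2.49 FPKM in iGLI2, replicates 1 to 3, and passed as lower (limma difference -0.54, adjusted p = 0.0241). The MNX1 call was lost without any of the iEV libraries or without iGLI2 replicate 2, with adjusted p-values between 0.0561 and 0.0808. The acinar regulator PTF1A, PAX4 and SOX17 were listed at 0 in all libraries, and SOX9 was tested and did not pass (limma, adjusted p = 0.722), except without iEV replicate 1, where its difference was 0.29 (adjusted p = 0.0473).

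Among 27 relatives and cofactors of the 8 factors, 19 were tested, 3 were higher, 1 was lower and 15 did not pass, with a median difference of 0.14. The 4 calls among 19 are close to the 22.0% over all genes tested. RXRA, a nuclear receptor of the same class as the HNF4 proteins, rose from 18.9 ± 1.12 to 30.3 ± 1.45 FPKM (limma difference 0.65, adjusted p = 0.00231). PPARGC1A, a coactivator that works with HNF4A on gluconeogenic genes in liver, fell from 7.70 ± 0.882 to 3.20 ± 0.729 FPKM (limma difference -1.06, adjusted p = 0.00476). The other members that rose were GATA5, given above, and RXRG, which was at 0.969 FPKM in iEV and 2.75 FPKM in iGLI2. RXRG kept its call without iEV replicate 1 and without iGLI2 replicate 1, and lost it without each of the other 4 libraries, with adjusted p-values between 0.0824 and 0.108, and with a block on the digit in the sample code (0.0573).

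**Figure D4:**
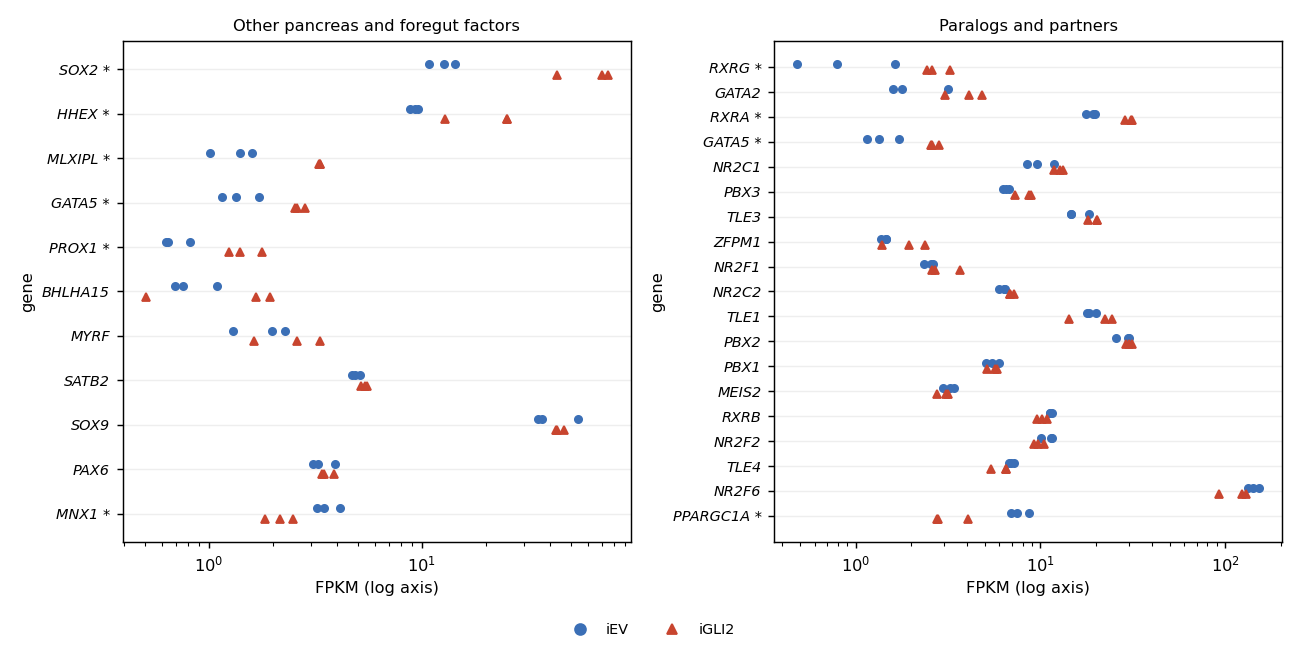
FPKM (x axis, log scale) of the tested genes (y axis) of the wider pancreas and foregut factors, left, and of relatives and cofactors, right. Each point is a library, circles for iEV and triangles for iGLI2, and an asterisk marks an adjusted p under 0.05. SOX2 lies at most at 14.3 FPKM in iEV and at least at 43.2 FPKM in iGLI2, and PPARGC1A and MNX1 lie lower in iGLI2. A tested gene of the left list is not shown.

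Genes of liver and gut epithelium that HNF4 and related hepatic factors are known to switch on were mostly below 1 FPKM in this line. Of 50 listed, 48 were in the table and 5 were tested, of which 2 were lower, 0 were higher by limma and 3 did not pass, with a median difference of -0.16. Over all genes tested 11.8% were lower, and 5 tested genes are too few to set beside that share. SERPINA1, which encodes the protease inhibitor alpha-1 antitrypsin, was at 299, 431 and 403 FPKM in iEV and at 115, 134 and 142 FPKM in iGLI2, replicates 1 to 3. The groups were far apart and the limma difference was -1.51 (SE 0.16, adjusted p = 0.00215). TMPRSS2, a membrane serine protease, fell from 27.1 ± 4.61 to 12.5 ± 2.87 FPKM (limma difference -1.06, adjusted p = 0.0136), a call that was lost without iEV replicate 2, iEV replicate 3 or iGLI2 replicate 3, with adjusted p-values of 0.0636, 0.0631 and 0.0552. Listed genes below the filter, which were not tested, went either way. VIL1 was between 0.00919 and 0.0460 FPKM in iEV and between 0.270 and 0.781 FPKM in iGLI2. AGT was between 0.0441 and 0.106 FPKM in iEV and at most 0.0253 FPKM in iGLI2. Both were chosen after their values were seen. HNF4A itself was listed near 0 in both groups, as given above.

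The classical signature of the study, 19 genes that the authors use to type PDA, includes genes tied to these factors. It was assembled by the study from published PDA signatures. Of its 17 tested members 5 were higher, 4 were lower and 8 did not pass, with a median difference of 0.036, beside 10.1% higher and 11.8% lower over all genes tested. CEACAM6 and CEACAM5, cell adhesion glycoproteins, rose from 4.74 to 17.2 FPKM and from 1.90 to 6.97 FPKM (limma, adjusted p = 0.00156 and 0.00167). TSPAN8, GPX2 and PLS1 also passed as higher, the calls of GPX2 and PLS1 being lost without some libraries, with adjusted p-values up to 0.0733 and 0.0951. Lower were FOXQ1, a forkhead factor, from 54.2 to 32.4 FPKM, the calcium-binding protein S100P from 517 to 307 FPKM, TMEM45B from 80.7 to 47.4 FPKM and the epithelial ETS factor ELF3 from 85.0 to 59.4 FPKM. Over the 4 lists 21 genes were called, GATA5 being in both of the lists of factors and of relatives and counted here once, and 13 without iEV replicate 3 or without iGLI2 replicate 2. The lists held 12, 19, 5 and 17 tested genes, and 22.0% of all genes tested were called. Calls over all genes went from 2742 to 1303 without iEV replicate 3 and to 1357 without iGLI2 replicate 2.

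**Figure D5:**
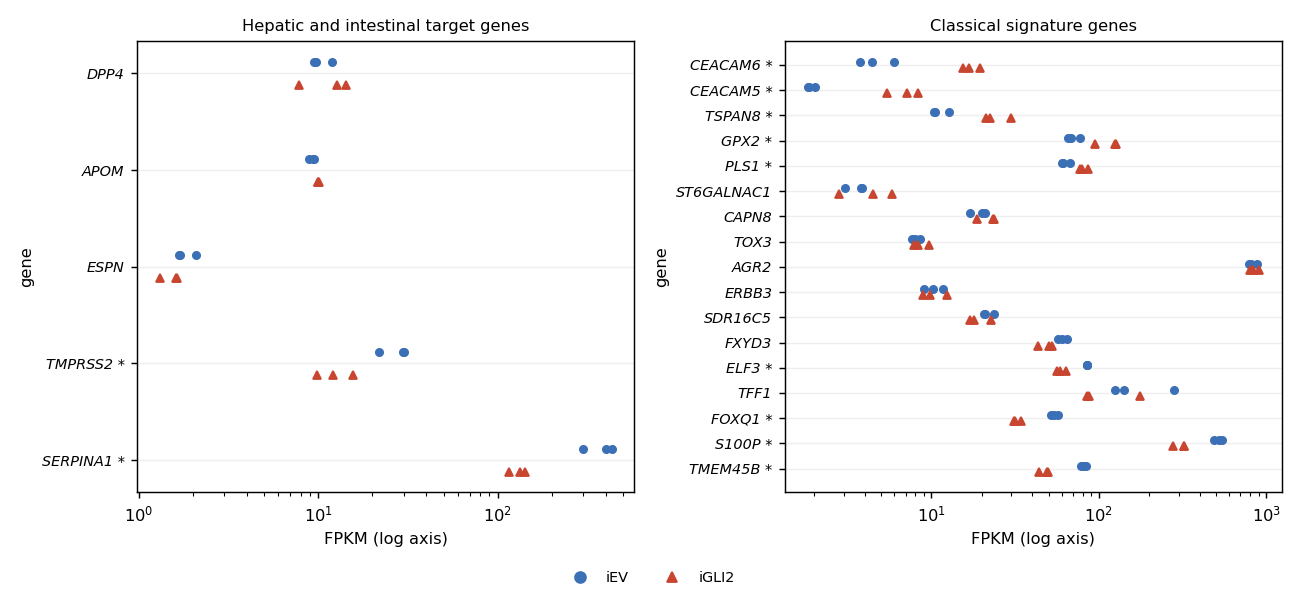
FPKM (x axis, log scale) of the tested hepatic and intestinal target genes, left, and of the tested classical signature genes, right (y axis, genes), with circles for iEV libraries, triangles for iGLI2 libraries and an asterisk for an adjusted p under 0.05. SERPINA1 lies between 299 and 431 FPKM in iEV and between 115 and 142 FPKM in iGLI2, and the signature genes with an asterisk lie on both sides.

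The genes whose values across the 6 libraries were most like those of GATA6 were SHH, PDDC1 and NEK6, by Pearson's r of log2(FPKM + 1) over the 9036 genes whose mean reached 5 FPKM. SHH, the hedgehog ligand, had r = 0.9995 and was at 64.2, 50.3 and 47.2 FPKM in iEV and at 9.18, 6.90 and 7.17 FPKM in iGLI2, replicates 1 to 3. It shared with GATA6 the fall in iGLI2 and the highest value in replicate 1 of each group. PDDC1 (r = 0.9993) was at 17.5 and 10.1 FPKM on average, and NEK6, a mitotic kinase, (r = 0.9992) at 39.8 and 14.1 FPKM. With 6 libraries in 2 groups such values mostly restate the group difference, and the libraries share their scaling. For HNF4A the nearest were ZNF330, ATAD2 and KMT2A, with r between 0.957 and 0.978, and none of the 3 was called by limma. Their likeness rests on HNF4A values of at most 0.0605 FPKM.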

How the data were processed

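RNA was from 6 libraries made with the unstranded TruSeq RNA kit, and groups were taken from the sample titles. The authors trimmed reads with Trimmomatic and aligned them to hg19 with TopHat2. Per the labels, Cuffdiff 2.1.1 was used as well. The gene annotation is not given in the sources used here. The values the authors deposited, which carry no named unit, were read as FPKM from their form, made by the authors from the aligned fragments, and the locus starts, counted from 0, were raised by 1. Low values held no step shared by more than 2.21% of 2397 genes, so reads could not be recovered and no counting error is given.

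The 1252 entries off the primary chromosomes and 332 lower entries of a repeated name were left out. log2(FPKM + 1) was fitted in limma 3.58.1 (R 4.3.3) with condition as the term, an intensity trend, Benjamini-Hochberg adjustment over the 12492 genes whose mean reached 1 FPKM and a threshold of 0.05. On simulated data with known changes the script was tested first. Exact permutation tests were two-sided (scipy 1.17.1). Sequences were read with Python 3.11.15, and plots used matplotlib 3.10.9.

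Named genes are the 8 factors, GLI2, up to 6 called genes per direction and list with at least 5 FPKM in the higher group, the neighbouring transcripts, and the 3 genes most like GATA6 and HNF4A. Others, such as GATA2, GATA5, MNX1, PROX1, RXRG, SOX9, ONECUT3, PTF1A, PAX4 and SOX17, were added for context after their values were seen. The cell type markers were listed in the plan as a check of the labelled cell type. Which of them to name was decided after their values were seen. A gene counted in the lists is not reported here by name. The factors and lists were chosen with earlier results of these data known. Alternatives were a pseudocount of 0.1, no filter, a mean of at least 5 FPKM, upper quartile scaling, quantile normalization, small RNA genes left out, a block on the replicate number or on the digit in the sample code, no trend, robust moderation, an adjusted p under 0.01, at least 2-fold, and each library left out in turn.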

Additional observations from a re-analysis of the deposited data

How the results depend on the processing

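GATA6 and FOXA1 kept their direction and stayed past the threshold in all 16 settings in which they were tested. GATA4 and FOXA2 stayed short of it in all of theirs, with adjusted p-values between 0.109 and 0.613 and between 0.0556 and 0.534 by limma. The call of PDX1 depends on 1 library and on the block. Its difference was between -0.55 and -0.30 with a library left out, and past the threshold without iGLI2 replicate 1 (adjusted p = 0.0448, limma). With the replicate block the difference was -0.42 and the adjusted p 0.0150. The sources used here do not give the replicate numbers as pairs, and they were not taken as such. The deviations of same-numbered libraries correlated at 0.204, 0.0919 and 0.0277, with 0.204 the highest of all pairings. iGLI2 replicate 3 correlated best with iEV replicate 2 (0.117). These values do not settle whether the libraries were paired. The block raised the calls over all genes from 2742 to 3928 and those among the 8 factors from 2 to 3.

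Calls over all genes were between 1223 and 3753 with a library left out, 1095 at an adjusted p under 0.01 and 527 with at least 2-fold. Those higher were between 608 and 1855, 540 and 324 in the same order, and 824 with a mean of at least 5 FPKM. Those lower were between 615 and 1898, 555 and 203. The calls over the 4 companion lists were between 13 and 26, 12 and 8. The filter of 5 FPKM left FOXA2 as the sole factor tested and 0 of them called. A pseudocount of 0.1 gave -0.34 for HNF4A, 0.42 for HNF4G, and for the paralog ratios -2.21 (GATA6 over GATA4), -0.76 (HNF4A over HNF4G), 1.97 (FOXA1 over FOXA2) and 2.19 (FOXA1 over FOXA3). A smaller pseudocount weights low values more by its construction. LINC00261 was between -0.13 and 0.19 with a library left out, turning to -0.056, -0.025 and -0.13 without iEV replicate 2, iEV replicate 3 and iGLI2 replicate 1. SOX9 was between -0.017 and 0.29 with a library left out, the sign turning without iEV replicate 3.

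Depth is unknown, so values under about 1 FPKM carry no stated counting error. These include HNF4A and GATA6-AS1, GATA6 in every iGLI2 library and FOXA1 in every iEV library. The folds given for GATA6 and FOXA1 each rest on 1 such group.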

Other observations

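Several factors of the same tissues were below the filter and so outside the comparison, and are given as values, chosen after they were seen. ONECUT3, a homeodomain factor of the hepatic and pancreatic family, was at 0.0607, 0.0681 and 0.213 FPKM in iEV replicates 1, 2 and 3 and at 1.55, 1.75 and 1.74 FPKM in iGLI2 replicates 1, 2 and 3. Its groups were far apart, and its relative ONECUT1 was at most 0.0610 FPKM in any library. GATA3, a further GATA gene, was between 0.305 and 0.508 FPKM in iEV and between 0.643 and 0.969 FPKM in iGLI2. NKX6-1, a factor of pancreatic progenitors and beta cells, was between 0.275 and 1.23 FPKM in iEV and between 0.494 and 0.805 FPKM in iGLI2, inside the iEV range. CFTR, a channel of duct cells, was between 0.0351 and 0.0514 FPKM in iEV and between 0.331 and 0.402 FPKM in iGLI2. PRSS1, the acinar protease trypsinogen, was between 5.18 and 13.3 FPKM in iEV and between 2.59 and 4.36 FPKM in iGLI2 without passing (limma, adjusted p = 0.0564), though it passed without iEV replicate 1 (adjusted p = 0.00929), with the replicate number as a block (0.0121), with small RNA genes left out (0.0350) and with a pseudocount of 0.1 (0.0499). Of the other acinar markers, CPA1, PNLIP and AMY2A were listed at 0 in all libraries. CEL was between 0.118 and 0.155 FPKM, and CTRB1 was at most 0.0410 FPKM. CELA3A, opposite in direction to PRSS1, was listed at 0 in iEV and was between 0.0465 and 0.122 FPKM in iGLI2.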
